A study of Mus musculus with 6 samples.

Results

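The ADAMTS proteases are secreted zinc metalloproteases that carry thrombospondin type 1 repeats and cut proteins of the extracellular matrix. They are made as precursors, and several of them, such as Adamts1, Adamts4, Adamts5 and Adamts9, cleave versican, aggrecan and related proteoglycans. Timp3 is an inhibitor that binds to the matrix and blocks ADAMTS proteases, ADAM17 and matrix metalloproteases. In the glomerulus these enzymes and their inhibitor act on the matrix that lies between endothelial cells, mesangium and podocytes.

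Signals of these genes were examined in glomerular endothelial cells (GEC) of normal and diabetic mice. The set held 10 named genes, namely Adamts9, 8 further ADAMTS genes (Adamts1, Adamts2, Adamts4, Adamts5, Adamts7, Adamts10, Adamts15 and Adamts20) and Timp3. Every probeset whose annotation gave one of these as its single gene was taken, which made 14 of 35557 probesets on the array. They covered 9 genes, since the annotation table listed no probeset for Adamts2. Adamts9 had 6 probesets and each other gene had 1. The genes were chosen by the difference of Adamts9 signal between db/db and normal in these same arrays, together with the genes of its family and their inhibitor. The differences between diabetic and normal arrays given below for the members are therefore descriptions, with no test, and nothing is supported with them.

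Normal animals had the genotype Tie2-GFP/ +/+ and diabetic animals Tie2-GFP/ DB/DB, the homozygous leptin receptor mutation that leads to obesity and diabetes. Both groups carried the Tie2-GFP transgene, in which the promoter of the endothelial receptor gene Tie2 drives a green fluorescent protein, and both were 7 months old. Some blood cells also use this promoter, so a sort on the fluorescence need not be endothelial alone. The cells came from sieved and dissociated glomeruli, and 3 normal and 3 diabetic (db/db) samples were measured, each described as a biological replicate, on 1 Affymetrix mouse whole-transcript array per sample. Values are log2 probeset signals, and their precision is limited by having 3 arrays a group. Signals of different probesets are not compared in height, since each probeset has its own response.

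Markers of the endothelium were far above the filter level of 100 on the linear scale in every array. Kdr was at 13.08 ± 0.02 in normal and 13.18 ± 0.00 in db/db arrays (log2, mean ± SD, n = 3 per group), and Emcn, a sialomucin of capillaries, differed by 0.05 ± 0.07. The summed linear signal of 13 endothelial markers was 66820 to 67589 in normal and 66932 to 69424 in db/db arrays. Cdh5, the cadherin of endothelial junctions, had a difference of 0.21 ± 0.08, and Tek, the receptor Tie2 itself, had -0.33 ± 0.12 (limma adjusted p = 0.754 for each).

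Markers of other cell types were also measured, and some were past the level. Of 8 podocyte markers on the array 5 were past it, with sums of 954 to 1114 in normal and 890 to 977 in db/db arrays. Of these 5, Cdkn1c alone had a lower mean in db/db (-0.40 ± 0.12), so the lower sums go with that gene. The other 4 had a higher mean, Synpo by 0.24 ± 0.16, Wt1 by 0.08 ± 0.07, Nphs1 by 0.06 ± 0.11 and Podn by 0.04 ± 0.10. Their group means of 6.96 to 7.40 were near the filter level of 6.64. Of 10 mesangial and smooth muscle markers 4 were past the level, with sums of 756 to 974 and 902 to 1021. Among these Meis1 was 9.03, 7.94 and 8.94 in normal and 8.78, 9.04 and 8.97 in db/db arrays, well above the level in all 6, while Tagln differed by 0.22 ± 0.28 and Acta2 by 0.09 ± 0.36. Pdgfrb and Itga8 lay below the level.

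Of 10 leukocyte markers 3 were past the level, with sums of 693 to 753 and 501 to 1448. Tyrobp, a signalling adaptor of myeloid cells, was 9.03, 8.68 and 8.79 in normal and 10.04, 7.45 and 8.83 in db/db arrays, so that its db/db arrays spread on both sides of the normal ones. Cd3e, a T cell gene, differed by -0.11 ± 0.16, and Cd68 by 0.76 ± 0.27. The other 7 leukocyte markers did not pass the filter. Of these, Lyz2 had a mean of 6.34 in normal and 6.95 in db/db arrays, and Fcer1g 6.45 and 6.70. Laptm5 had 6.35 and 6.48, Csf1r 6.17 and 6.25, and Itgam 5.66 and 5.67. The means of the pan-leukocyte marker Ptprc (6.42 and 6.33) and of Cd79a (5.47 and 5.14) were lower in db/db. Summed signals of 5 tubule markers were 711 to 832 and 847 to 874, with differences of 0.31 ± 0.13 for Umod, 0.19 ± 0.13 for Slc12a3, 0.16 ± 0.14 for Aqp2 and 0.03 ± 0.09 for Slc34a1. Umod was 6.63, 6.50 and 6.24 in normal and 6.87, 6.68 and 6.73 in db/db arrays. It passed the filter through the db/db group alone, so nothing is read from its difference or its part in the sums. Summed signals of 2 erythrocyte markers, Alas2 and Slc4a1, were 284 to 309 and 270 to 300, with differences of -0.10 ± 0.12 and 0.01 ± 0.11. Of all these markers 0 passed limma's adjusted test, and at an unadjusted p under 0.05 Cdh5 and Cd68 were higher and Tek and Cdkn1c lower. At that threshold limma called 3.48% of all tested probesets higher and 2.91% lower, and nothing is read from the number of markers called. In each of the 4 globin probesets, which list several genes each, every db/db array was lower than every normal array, as in 5.31% of all tested probesets. Probeset 10375051 was 11.46, 11.41 and 11.74 in normal and 8.75, 9.98 and 9.66 in db/db arrays. Probeset 10566254 was 12.67, 12.45 and 13.14 against 10.79, 11.29 and 10.87. The differences (db/db minus normal) of the 4 were -2.07 to -1.77. The part of blood cells or other cells in the results below was not tested. With bulk arrays, fewer cells of a type and less RNA per cell cannot be told apart.

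RefSeq promoter windows were at hand for 5 of the 10 genes (Adamts1, Adamts2, Adamts9, Adamts20 and Timp3, build GRCm38.p6). The bases just before the listed start of Adamts9, the gene whose signal differed most, are shown beside those of Timp3 and Adamts1, whose signal differed little. Capitals mark the GC box, GGGCGG on either strand, and sequences read 5′ to 3′ on the gene's own strand.
Adamts9, chr6:92943535-92943564, minus strand: tatttgagcgcccgcgggggcccCCGCCCc
Timp3, chr10:86300372-86300411, plus strand: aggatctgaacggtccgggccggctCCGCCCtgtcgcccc
Adamts1, chr16:85803114-85803153, minus strand: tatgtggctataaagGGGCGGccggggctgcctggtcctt

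The Adamts9 stretch lies inside the span of the RefSeq gene, because other transcript models of the gene begin further upstream. Over the 250 bases before the start, a GC box was found in all 5 of these genes and in 32.7% of 32851 promoter windows. The TATA box TATAAA was found in Adamts1 alone of the 5 (12.4% of windows). The STAT motif TTCNNNGAA, searched on both strands, was found in 0 of the 5 (7.02% of windows), and so was the AP-1 motif TGANTCA (6.75%). The NF-kappaB motif was found in Adamts9 and Adamts20 (7.25%), and in Adamts9 it shares bases with the GC box. These matches describe letters in a window and do not show that a factor binds there.

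In each of its 6 probesets Adamts9 had a higher signal in all 3 db/db arrays than in the highest normal array. Averaged over the 6 probesets, signal was 7.39, 7.15 and 7.36 in normal replicates 1 to 3 and 9.33, 8.89 and 9.11 in diabetic replicates 1 to 3. The groups were thus well apart, with 7.30 ± 0.13 against 9.11 ± 0.22 (log2, mean ± SD, n = 3 per group). The difference was 1.81 ± 0.15 (SE over arrays), and the median of the 6 differences was 1.64. In 1 of the 6 the normal mean lay below the filter level. Over the other 5 the arrays were at 7.48, 7.44 and 7.60 against 9.24, 8.57 and 9.09, a difference of 1.46 ± 0.21 or 2.75-fold. Adamts9 is a secreted protease of versican and aggrecan that stays close to the cell surface, and it is known to restrain the growth of new vessels.

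**Figure D1:**
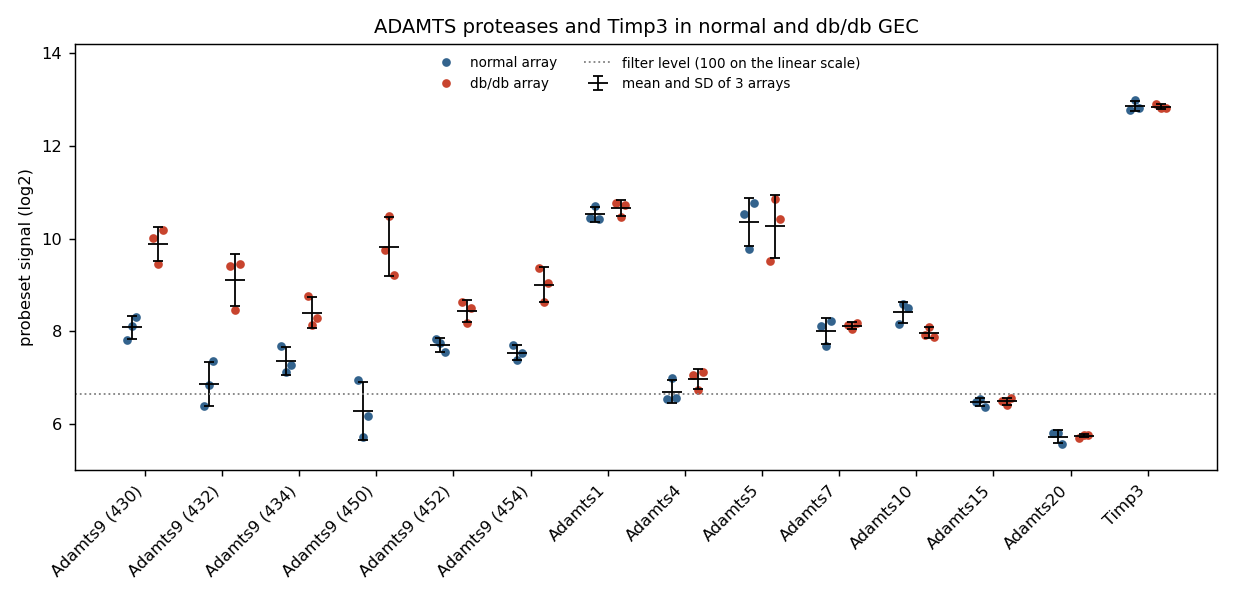
Log2 signal of each of the 14 probesets (horizontal axis) in single normal arrays (blue points) and db/db arrays (red points), with mean and SD of 3 arrays per group (black) and the filter level of 100 on the linear scale (dotted line). Numbers in brackets are the last digits of the Adamts9 probeset numbers. The groups lie apart in all 6 Adamts9 probesets, by a narrow margin in Adamts10, and overlap in the others.

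The 6 probesets of Adamts9 differed in how far the groups lay apart. Probeset 10546450 had the largest difference, with 6.94, 5.71 and 6.17 in normal replicates 1 to 3 and 9.76, 10.49 and 9.22 in diabetic replicates 1 to 3. That is a difference of 3.55 ± 0.44 (log2, limma SE), given without a fold because the normal mean of 6.27 lay below the filter level of 6.64. It passed the level filter through the db/db group, with only 1 normal array at that level. Probeset 10546432 came next, at 6.39, 6.84 and 7.35 in normal and 9.41, 8.46 and 9.44 in db/db arrays, a difference of 2.25 ± 0.36 or 4.75-fold.

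Probeset 10546430, which stands for the gene where 1 probeset per gene is used, gave 7.81, 8.12 and 8.31 in normal and 10.01, 9.46 and 10.18 in db/db arrays. The lowest db/db array was 1.15 above the highest normal array, and the difference was 1.80 ± 0.23 or 3.49-fold. Probeset 10546454 gave 7.70, 7.38 and 7.52 against 9.36, 8.62 and 9.04, a difference of 1.48 ± 0.21 or 2.78-fold. In these probesets the margin between the groups exceeded the range within either group.

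The smallest differences were in probesets 10546434 and 10546452. The former gave 7.69, 7.11 and 7.28 in normal and 8.77, 8.14 and 8.28 in db/db arrays, a difference of 1.04 ± 0.23 or 2.05-fold. The latter gave 7.83, 7.75 and 7.54 against 8.64, 8.18 and 8.51, a difference of 0.74 ± 0.15 or 1.67-fold. Here the margin between the groups was only 0.45 and 0.35, so these probesets separated them least.

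Within the db/db group, 5 of the 6 Adamts9 probesets were lowest in diabetic replicate 2. The exception was 10546450, the probeset with the largest difference, which was highest in that array. Within the normal group, probesets 10546430 and 10546432 were lowest in replicate 1, whereas the other 4 were highest there. The probesets of Adamts9 therefore ranked the arrays differently within a group while they all separated the groups. The annotation table lists the same RefSeq transcript for all 6 and gives no position along it.

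**Figure D2:**
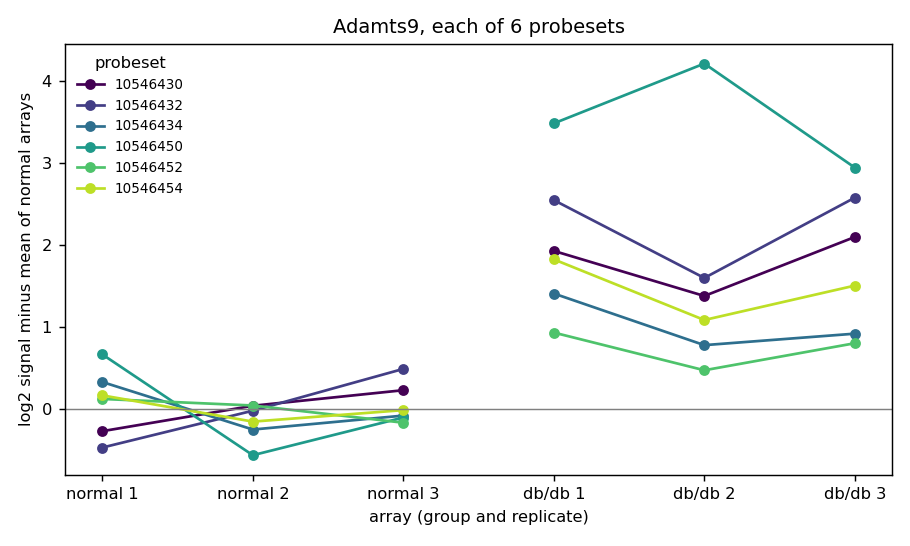
Log2 signal of each Adamts9 probeset minus its mean over the 3 normal arrays (vertical axis), by array (horizontal axis), with lines that only join the points of a probeset within a group. All db/db points lie above all normal points of the same probeset, and probeset 10546450 alone peaks in diabetic replicate 2, at 10.49 before subtraction.

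The nearest genes with a tested probeset on either side of Adamts9 in RefSeq order did not show a like difference. Prickle2, a planar polarity gene and the nearest on one side, had a log2 difference of 0.04 ± 0.24 (limma adjusted p = 0.991), and Magi1, a scaffold protein of cell junctions on the other side, had 0.08 ± 0.09 (adjusted p = 0.911). The next tested genes out, Rbsn and Slc25a26, had 0.34 ± 0.30 and 0.12 ± 0.17 (adjusted p = 0.892 and 0.942). In all 4 the groups overlapped.

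Among 12756 other genes with a tested probeset, the profile over the 6 arrays was compared with that of Adamts9 after each gene was centred on its mean. The closest were Adal, Ch25h, Gpihbp1, Bgn and Parp8, with a root mean square difference of 0.277 to 0.354 on the log2 scale, against 0.922 for the median gene. Ch25h makes an oxysterol from cholesterol and was 7.06, 7.67 and 7.81 in normal and 9.64, 9.39 and 9.32 in db/db arrays. Gpihbp1 carries lipoprotein lipase to the capillary lumen and was 11.09, 10.96 and 10.88 in normal and 12.36, 11.96 and 12.12 in db/db arrays. The Adamts9 profile is mainly the difference between the groups, so genes of a similar difference come closest by construction.

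Adamts20 shares with Adamts9 the GON domain at the end of the protein and is known from pigment cells. Its probeset lay between 5.57 and 5.80 in all 6 arrays, below the filter level in each, and was not tested. Whether it changed cannot be read at this level.

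Among the other proteases of versican and aggrecan, Adamts1 and Adamts5 gave high signal. Adamts1, which also binds VEGF and limits vessel growth, was 10.45, 10.71 and 10.42 in normal and 10.77, 10.46 and 10.73 in db/db arrays. The groups overlapped, and the difference was 0.13 ± 0.13 (log2, limma SE). Adamts5, the main aggrecanase of mouse cartilage, was 10.53, 9.77 and 10.76 in normal and 9.51, 10.85 and 10.42 in db/db arrays. Its difference of -0.09 ± 0.42 was small beside a range of 0.98 within normal and 1.34 within db/db arrays. Its residual SD of 0.61 was above that of 91.1% of tested probesets, whose median was 0.18. Leaving out single arrays moved its difference from -0.39 to 0.28, so it had no settled sign.

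The genes Adamts1 and Adamts5 lie next to each other on chromosome 16, with no other gene on the array between them. The 3 arrays with the highest Adamts1 signal, normal replicate 2 and diabetic replicates 1 and 3, were also the 3 with the lowest Adamts5 signal. This order was seen after the values were known and was not tested. Adamts1 covered only 0.36 on the log2 scale over all arrays and Adamts5 1.34. The genes closest to the centred Adamts5 profile were Efhc2, B130055M24Rik, Mrpl40, Gm9958 and Snx27, at 0.157 to 0.180 against 0.526 for the median gene. Snx27, which sorts membrane receptors in endosomes, was 9.48, 8.89 and 9.74 in normal and 8.98, 9.80 and 9.53 in db/db arrays. Like Adamts5, it was lowest in normal replicate 2 and diabetic replicate 1 and highest in diabetic replicate 2.

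**Figure D3:**
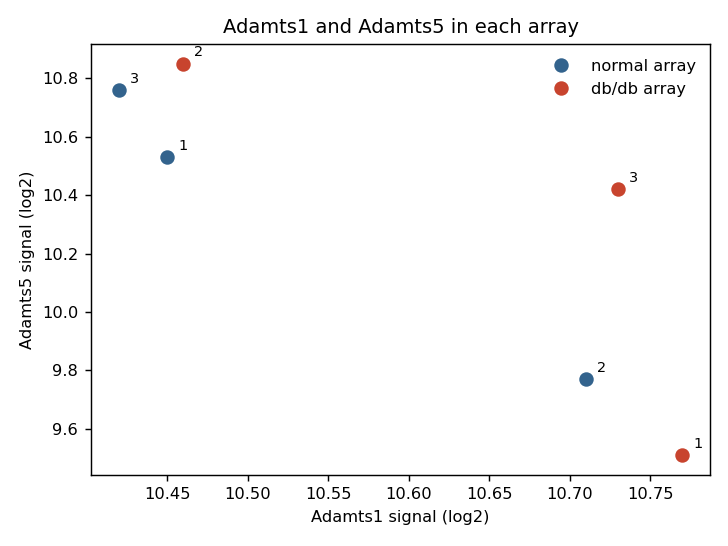
Log2 signal of Adamts5 (vertical axis) against Adamts1 (horizontal axis) in each normal (blue) and db/db (red) array, numbered by replicate. The 3 arrays highest in Adamts1 are the 3 lowest in Adamts5, and both groups have arrays at either end. The axes cover different widths.

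Adamts4, an aggrecanase that inflammatory signals induce, was near the filter level, at 6.54, 6.98 and 6.56 in normal and 7.06, 6.72 and 7.11 in db/db arrays. The groups overlapped, and the difference was 0.27 ± 0.17. With 1 normal and 3 db/db arrays at the level, it too passed the filter mainly through the db/db group. Adamts15, another aggrecanase, lay between 6.37 and 6.56 in all 6 arrays, below the level, and was not tested.

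The remaining proteases cut other matrix proteins or bind to microfibrils. Adamts10, which binds fibrillin and takes part in the assembly of microfibrils, was 8.15, 8.58 and 8.50 in normal and 7.92, 8.10 and 7.88 in db/db arrays. Every db/db array was lower than every normal array, but normal replicate 1 was only 0.05 above diabetic replicate 2. The difference was -0.44 ± 0.14 (8.41 ± 0.23 to 7.97 ± 0.12, mean ± SD, n = 3 per group), and it lay between -0.57 and -0.36 when single arrays were left out. The genes closest to its centred profile were Pcf11, Kif3c, Arid5b, Pdcd6 and Ints9, at 0.0654 to 0.0811 against 0.311 for the median gene. Adamts7, a protease of cartilage oligomeric matrix protein, was 8.11, 7.69 and 8.23 in normal and 8.14, 8.04 and 8.18 in db/db arrays. Its groups overlapped, with a difference of 0.11 ± 0.16, and without normal replicate 2 the difference was -0.05.

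Timp3, the inhibitor, gave high signal with little spread. It was 12.78, 12.99 and 12.81 in normal and 12.91, 12.82 and 12.81 in db/db arrays, so the groups overlapped. Its difference was -0.01 ± 0.09, and leaving out single arrays gave -0.05 to 0.05. The residual SD was 0.09, above that of only 16.4% of tested probesets. The genes closest to the centred Timp3 profile were Slitrk5, Cfc1, Amz1, Rpl4 and Mapk8ip2, at 0.0124 to 0.0231 against 0.168 for the median gene. The small peak of Timp3 in normal replicate 2 was shared by Rpl4, a ribosomal protein, at 12.83, 13.06 and 12.92 in normal and 13.01, 12.89 and 12.92 in db/db arrays.

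Of the 14 probesets 12 passed the filter, a linear signal of 100 or above in no fewer than 3 arrays. In limma's test, adjusted by Benjamini-Hochberg over all 20661 probesets tested, 0 of these 12 were called in either direction, as were 0% of all probesets (smallest adjusted p = 0.203). At an unadjusted p under 0.05, limma called 6 of the 12 higher, all of them Adamts9, and 1 lower, Adamts10, against 3.48% and 2.91% of all probesets. The groups did not overlap, with db/db higher, in the same 6 probesets and in 7.01% of all, and with db/db lower in 1 probeset, that of Adamts10, and in 5.31% of all. At the study's thresholds, the methods' t-test, with an unadjusted p under 0.05 and over 1.5-fold, called the 6 Adamts9 probesets higher and 0 of the 12 lower, against 0.871% and 0.644% of all, and after adjustment it called 0. Since the genes were named on this contrast and 6 probesets read a single gene, nothing is read from these counts. Of 55 genes with at least 5 tested probesets, 1 (1.82%) had db/db higher without overlap in each probeset, and it was Adamts9. Adamts9 was chosen for this difference, so nothing is read from this count either. The 6 other member genes that were tested had a median difference of 0.05, against 0.01 over all tested probesets, with 3 higher and 3 lower.

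The other genes of the pathway were taken by list, each gene by its probeset with the highest mean, and limma's adjusted p is over all probesets. Of 10 ADAMTS proteases outside the named set 6 were tested, and 0 passed in either direction, also at an unadjusted p under 0.05. Their median difference was -0.01. Adamts16 was 8.58, 9.02 and 8.91 in normal and 9.09, 7.82 and 8.18 in db/db arrays, a difference of -0.48 ± 0.34 (adjusted p = 0.873). Adamts14, a procollagen protease, had 0.09 ± 0.08 (adjusted p = 0.887), and Adamts17 had 0.01 ± 0.09. Adamts3, a procollagen protease with 4 tested probesets, had differences of -0.13 to 0.06, all of them smaller than any of the Adamts9 differences. Adamts13, the protease of von Willebrand factor, lay below the level, at a mean of 6.17 in normal and 6.30 in db/db arrays.

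Of 7 ADAMTS-like proteins, which share the thrombospondin repeats but have no protease domain, 4 were tested and 0 passed (limma). At an unadjusted p under 0.05 there were 0 higher and 1 lower, against 3.48% and 2.91% of all tested probesets. That gene was Adamtsl5, a protein that binds fibrillin, at 8.64, 8.80 and 8.75 in normal and 8.35, 8.25 and 8.24 in db/db arrays. All db/db arrays were lower, by -0.45 ± 0.09 (adjusted p = 0.452, and 0.572 to 0.887 without single arrays). Adamtsl2 had a difference of 0.18 ± 0.15 (adjusted p = 0.884).

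Of 5 other metalloprotease inhibitors 2 were tested, and 0 passed at either threshold (limma). Timp2 was 10.37, 10.01 and 10.31 in normal and 9.79, 10.41 and 10.02 in db/db arrays, a difference of -0.15 ± 0.19. Reck, an inhibitor anchored in the membrane, had 0.24 ± 0.25. Timp1 and Timp4 lay below the level, with Timp1 at a mean of 6.15 and 6.39.

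Of 8 genes for the maturation of ADAMTS proteins 0 passed (limma), also at an unadjusted p under 0.05. Pcsk5, a proprotein convertase, had -0.22 ± 0.10 (adjusted p = 0.805), and B3glct, which extends the O-fucose of thrombospondin repeats, had 0.43 ± 0.21 (adjusted p = 0.818). Dpy19l1, of the family that adds mannose to thrombospondin repeats, had -0.01 ± 0.19. Furin, the main convertase of these precursors, was 8.56, 8.47 and 8.78 in normal and 8.65, 8.92 and 8.73 in db/db arrays, with overlap. Of 6 tested genes for clearance and binding 0 passed at either threshold. All 6 had a higher mean in db/db, with a median difference of 0.11, against 0.01 over all tested probesets. The share of all probesets with a higher mean was not counted, so nothing is read from this direction. Among the 6 genes, Lrp1, an endocytic receptor that clears Adamts5 and Timp3, had 0.10 ± 0.08. Kdr, the VEGF receptor that Timp3 binds, had 0.10 ± 0.07 (adjusted p = 0.873). Fn1, the fibronectin gene, which is also in the list of substrates, had 0.34 ± 0.17, and Sdc3, a syndecan, had 0.15 ± 0.19.

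Of 23 substrate genes on the array 18 were tested. None passed after adjustment (0 with limma). At an unadjusted p under 0.05 there was 1 higher and 0 lower, against 3.48% and 2.91% of all tested probesets. Their median difference was 0.08, with 14 higher and 4 lower, and nothing is read from this direction, which was not counted over all probesets. The proteoglycan biglycan, Bgn, was 7.04, 6.98 and 6.80 in normal and 8.55, 8.73 and 8.01 in db/db arrays, a difference of 1.49 ± 0.20 or 2.81-fold (adjusted p = 0.328, and 0.414 to 0.639 without single arrays). It was also among the genes closest to the Adamts9 profile. Versican and aggrecan, the textbook substrates, lay below the level, with Vcan at a mean of 5.82 in normal and 5.86 in db/db arrays and Acan at 6.31 and 6.49. The basement membrane proteins Nid1 and Nid2 had differences of 0.09 ± 0.09 and 0.24 ± 0.12 (adjusted p = 0.903 and 0.822). Thbs2, a thrombospondin, had -0.48 ± 0.25 with overlap.

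Of 10 tested ADAM proteases and 10 tested matrix metalloproteases 0 passed at either threshold (limma). Adam17, the sheddase of TNF that Timp3 inhibits, was 10.51, 10.14 and 10.57 in normal and 10.75, 10.66 and 10.59 in db/db arrays. The groups did not overlap, by a margin smaller than the spread within the normal arrays, and the difference was 0.26 ± 0.14 (adjusted p = 0.825). Adam19 had 0.63 ± 0.27 and Adam23 0.39 ± 0.20 (adjusted p = 0.787 and 0.825). Mmp14, a matrix metalloprotease of the cell surface, was 8.57, 7.67 and 8.71 in normal and 9.04, 8.56 and 8.88 in db/db arrays, with a difference of 0.51 ± 0.30 (adjusted p = 0.843). Mmp2 had 0.41 ± 0.24, Mmp28 -0.23 ± 0.16 and Mmp9 0.15 ± 0.08. Mmp9 was 6.56, 6.59 and 6.46 in normal and 6.70, 6.65 and 6.70 in db/db arrays, and passed the filter through the db/db group alone. Adam10, a sheddase of cell surface proteins, differed by 0.08 ± 0.10.

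A list of cytokines, receptors and signalling factors known to induce ADAMTS genes had 14 tested genes, and 0 passed after adjustment (limma). At an unadjusted p under 0.05, 3 were higher and 0 lower, against 3.48% and 2.91% of all tested probesets. The list was chosen with earlier results of these data known, so nothing is read from this count. Il1a, an inflammatory cytokine, was 5.82, 5.28 and 6.96 in normal and 10.07, 8.51 and 8.98 in db/db arrays. The difference was 3.17 ± 0.57 (limma adjusted p = 0.400, and 0.483 to 0.825 without single arrays), with the normal mean below the filter level. Of the normal arrays only replicate 3 was at the level, so Il1a passed the filter through the db/db group. Diabetic replicate 2 was the lowest db/db array for Il1a, as for 5 of the 6 Adamts9 probesets. The myeloid gene Tyrobp had its db/db arrays in the same order as Il1a, while 7 of the 10 leukocyte markers did not pass the filter. These orders of 3 arrays were seen after the values were known and were not tested, so nothing is read from them. Smad3, which carries TGF-beta signals, had 0.50 ± 0.13, and Hif1a, the oxygen-regulated factor, had 0.41 ± 0.14 (adjusted p = 0.621 and 0.750). Il6st and Smad2, both above the level in every array, differed by 0.07 ± 0.09 and 0.01 ± 0.09. The median of the list was 0.17. In the same arrays the leukocyte marker Cd68 was 6.63, 6.72 and 6.81 in normal and 7.95, 7.59 and 6.91 in db/db arrays (difference 0.76 ± 0.27, adjusted p = 0.752), with replicate 3 the lowest of the db/db arrays. The part of leukocytes in these values was not tested.

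**Figure D4:**
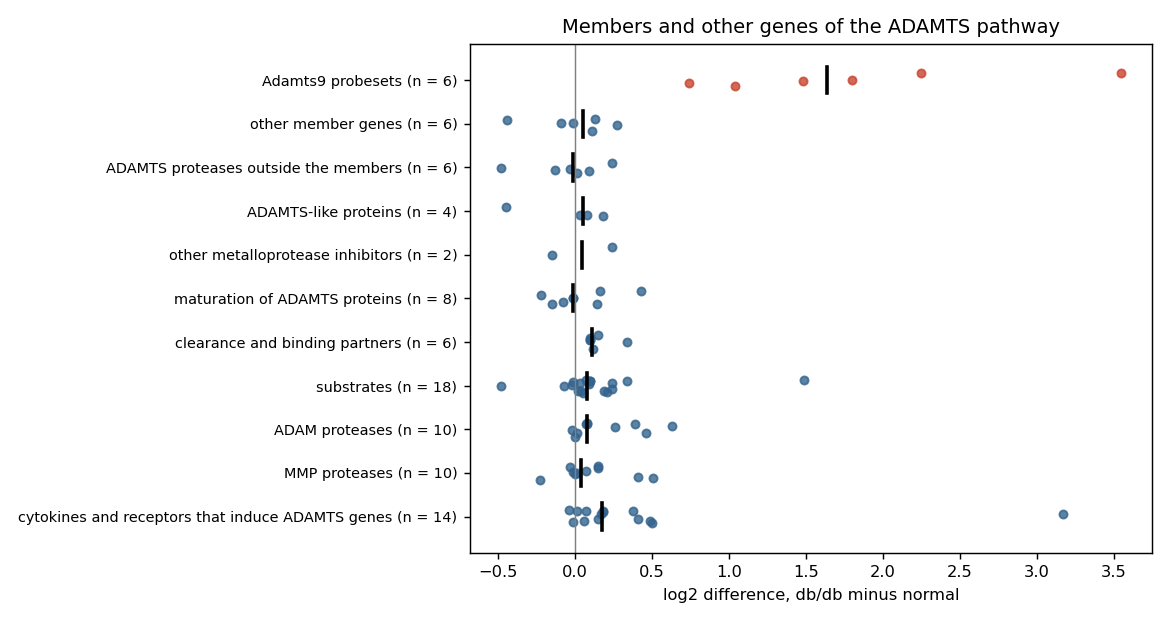
Log2 difference, db/db minus normal, for the 6 Adamts9 probesets (red), the 6 other tested member genes and the tested genes of each pathway list (blue), with the median of each row as a black bar. The Adamts9 probesets run from 0.74 to 3.55, and outside them Il1a at 3.17 and Bgn at 1.49 lie farthest from 0.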

How the data were processed

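RNA of FACS-sorted Tie2-GFP positive GEC was labelled with a NuGEN biotin module and hybridised to Affymetrix Mouse Gene ST arrays, 3 normal and 3 db/db. The deposited values are log2 probeset signals, 1 column per array. RMA in GeneSpring is stated in the study's methods, and MAS5 alone is named in the processing notes of the submitters. Array medians lay between 7.00 and 7.04, and the sorted values of each array were within 0.114 of those of normal replicate 1, so each value is relative to its array. No further normalisation was applied. The annotation gave 21789 probesets a single gene, 1621 several and 12147 none. Probesets with a linear signal of 100 or above in no fewer than 3 arrays were kept, 20661 in all, of which 5764 have no gene listed.

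Groups came from the sample labels. limma 3.58.1 in R 4.3.3 (lmFit, eBayes) compared db/db with normal in a two-sided test at a threshold of 0.05, and p was adjusted by Benjamini-Hochberg over all tested probesets. With 3 arrays a group the smallest two-sided p of an exact permutation test is 0.1, and such a test was not run. Members and lists were chosen with earlier results of these data known. Besides the members, the genes to name were in each list those past the test, or the 2 with the smallest p, and the 2 with the highest mean. To these came the 5 closest to the profile of Adamts9 or Timp3, and the 2 nearest genes with a tested probeset on either side of Adamts9. Others, such as Furin, Adamts3, Adamts13, Vcan, Acan, Timp1, Timp4, Thbs2, Lrp1 and Hif1a, were named after their values were seen. So were Pdgfrb, Itga8, Ptprc, Lyz2, Fcer1g, Laptm5, Csf1r, Itgam, Cd79a, Nphs1, Wt1 and the genes close to Adamts5 and Adamts10. The fit was tested on simulated data with 200 changed probesets. Alternatives were quantile normalisation, median centring, no filter, a level of 200, an intensity trend (also with a robust prior), weights per array, the methods' t-test, a replicate block, 1 probeset per gene, all probesets of a gene averaged, and leaving out each array. Promoter sequences are RefSeq's (GRCm38.p6). Plots were made in Python 3.11.15 (matplotlib 3.10.9).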

Additional observations from a re-analysis of the deposited data

How the results depend on the processing

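The mean difference of Adamts9 over its tested probesets was 1.81 and ranged from 1.70 to 1.92 when single arrays were left out, and it was 1.46 over the 5 probesets whose normal mean reached the level, an alternative chosen after seeing the data. No other setting moved the difference of a tested member probeset by as much as its residual SD (187 values). Of the 12, Adamts5 and Adamts7 changed sign when single arrays were left out, and Timp3 lay around 0. With 1 probeset per gene, 1 of 12763 genes passed the adjusted test, namely Scn7a, a sodium channel gene in none of the lists, named after its values were seen (difference -2.65, adjusted p = 0.0336, and 0.0336 to 0.53 over all settings), and Adamts9 then counted with 1 probeset in place of 6. With each of the other settings 0 probesets passed. The 6 Adamts9 probesets kept their groups apart without any single array. That outcome was fixed in advance, since groups that do not overlap cannot come to overlap when an array is removed, so nothing is read from it. Adamts10 was not called at an unadjusted p under 0.05 without normal replicate 2 or 3 or without diabetic replicate 1 or 3. Of the other member probesets, the groups did not overlap in 1, but in 4 without normal replicate 2 and in 3 without diabetic replicate 2. Over all probesets the count also rose, to 4616 and 4700 in these settings, so nothing is read from the member counts. Over all probesets the groups did not overlap in 2546 of 20661, and with no level filter in 4011 of 35557, a larger count out of more probesets. Without a single array they did not overlap in 4211 to 4867, where fewer arrays overlap less readily. No pairing of the arrays by replicate number was seen. The deviations of same-numbered arrays correlated at -0.004, 0.035 and -0.030, and those of different-numbered arrays at -0.047 to 0.059. Such correlations cannot exclude a pairing, since a weak shared effect need not show in them. With the replicate block 0 probesets passed and the difference of Adamts9 was 1.81. The replicates are labelled as biological, and the sources used here do not say whether animals were pooled. The arrays carry no detection calls here, so that a signal near the level may be mostly background.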
